A study of Homo sapiens with 22 samples.

Results

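The tubulin isotypes described here are 8 genes read by 11 probe sets, out of 11963 genes and 22215 probe sets tested on the array. The members were all probe sets whose platform annotation gives, as their only symbol, TUBB, TUBB2A, TUBB2B, TUBB3, TUBB6, TUBA1A, TUBA4A or TUBG1. That rule uses no measured value, but the genes in it were chosen with earlier results of these data known. A further probe set, 209372_x_at, is annotated to TUBB2B and TUBB2A together, and its values are given apart from either gene.

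Expression was measured on 22 arrays of 6 human B-cell lymphoma lines, with 3 lines of each of 2 kinds. Daudi, Namalwa and Raji come from Burkitt lymphoma, and HT, SU-DHL4 and SU-DHL6 from diffuse large B-cell lymphoma, DLBCL. The cells were cultured untreated, with no vehicle named in the labels, or with 5-aza-dC, a nucleoside that traps DNA methyltransferases, for 6 days. To the treated cells TSA, a histone deacetylase inhibitor, was added at 625 nM for the last 24 h. The sample titles give 5 µM 5-aza-dC and the protocol 3 µM, so the dose used is not settled. Every line had 2 arrays per treatment except HT, which had 1. Each line is a single established culture, and the labels do not say whether duplicates are separate cultures, so a p-value within 1 line reflects a spread that may be technical. The series design states that the treated Burkitt arrays had been published earlier, so an array batch and the treatment cannot be told apart in the Burkitt lines. Values for the Burkitt lines alone and the DLBCL lines alone are therefore given beside the main results.

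Tubulin is a heterodimer of an alpha and a beta chain that polymerises into microtubules, the hollow filaments of the cytoskeleton and the mitotic spindle. Humans carry several alpha and beta genes whose proteins are nearly identical and differ mostly at the acidic tail. TUBB encodes the beta chain used by most dividing cells and TUBG1 encodes gamma-tubulin, which nucleates microtubules, and these are called the ubiquitous members here. TUBB2A, TUBB2B and TUBB3 are beta chains enriched in neurons, TUBB6 is a beta chain found in many tissues at varying levels, TUBA1A is the main alpha chain of developing neurons, and TUBA4A is an alpha chain abundant in platelets, muscle and brain. These 6 are called tissue-restricted here, from textbook knowledge and not from the arrays. The label is loose for TUBB6, which is counted with them although it is found in many tissues.

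All values are log2 RMA levels. A probe set has its own brightness, so levels are compared between arrays of 1 probe set and never between probe sets. Of the 11 member probe sets, 5 end in _x_at, the array maker's mark for probes that may bind other transcripts, and 1 ends in _s_at, the mark for probes shared within a gene family. The 25th percentile of all values, 5.68, is used as the limit of dim signal.

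The B-cell label was checked against marker genes. All 5 B-cell markers measured stood at untreated means of 9.92 to 11.49, and all 5 were lower after treatment, with a median difference of -2.28. In treated cells the same 5 markers stood at means of 7.07 to 9.63. Untreated means were 6.57 to 7.66 for 3 T-cell markers, 5.72 to 6.46 for 3 monocyte markers, 4.98 to 7.62 for 4 platelet and red-cell markers, 5.02 to 7.27 for 4 neuronal markers and 4.47 to 8.24 for 4 epithelial and fibroblast markers. After treatment those ranges were 6.98 to 8.06, 5.61 to 7.62, 5.10 to 7.68, 5.21 to 7.56 and 4.63 to 8.37. Of these, CD3D, CD3E, CSF1R, ITGA2B and SYP passed the test as higher, by 0.41, 0.40, 1.17, 0.26 and 0.30. On bulk RNA, fewer cells of a type and less RNA per cell cannot be told apart. Both treated SU-DHL4 arrays had a narrow spread of values, with interquartile ranges of 2.03 and 1.96, and the second of the treated SU-DHL6 arrays had 1.99, against 2.31 to 2.59 on the untreated arrays. The 3' minus 5' difference of ACTB, a sign of RNA quality, was 0.47 and 2.08 on the treated SU-DHL6 arrays against -0.58 and -0.29 untreated, and 0.07 and 0.28 on the treated SU-DHL4 arrays against -0.76 and -0.74 untreated. In HT it was 0.01 treated and -0.41 untreated, and on the Burkitt arrays -0.57 to -0.28 treated and -0.76 to 0.07 untreated. The part of these differences in the tubulin values was not tested.

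Over the 6 lines, TUBB, the common beta chain, was lower after treatment by all 3 of its probe sets, with mean differences of -1.46 to -1.53. The neuron-enriched beta chains TUBB2A and TUBB2B were higher, by 2.04 and 1.88, TUBB2B on a probe set that ends in _x_at. The remaining 5 genes did not pass the test. Treated minus untreated was tested on the 6 line means with line as a block, using limma with Benjamini-Hochberg adjustment over all 22215 probe sets at 0.05. By that test 2 of the 11 member probe sets were higher, where 15.6% of all probe sets were, and 3 were lower, where 16.7% of all were. The median difference was 0.16 over the 11 member probe sets and 0.10 over all probe sets.

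**Figure D1:**
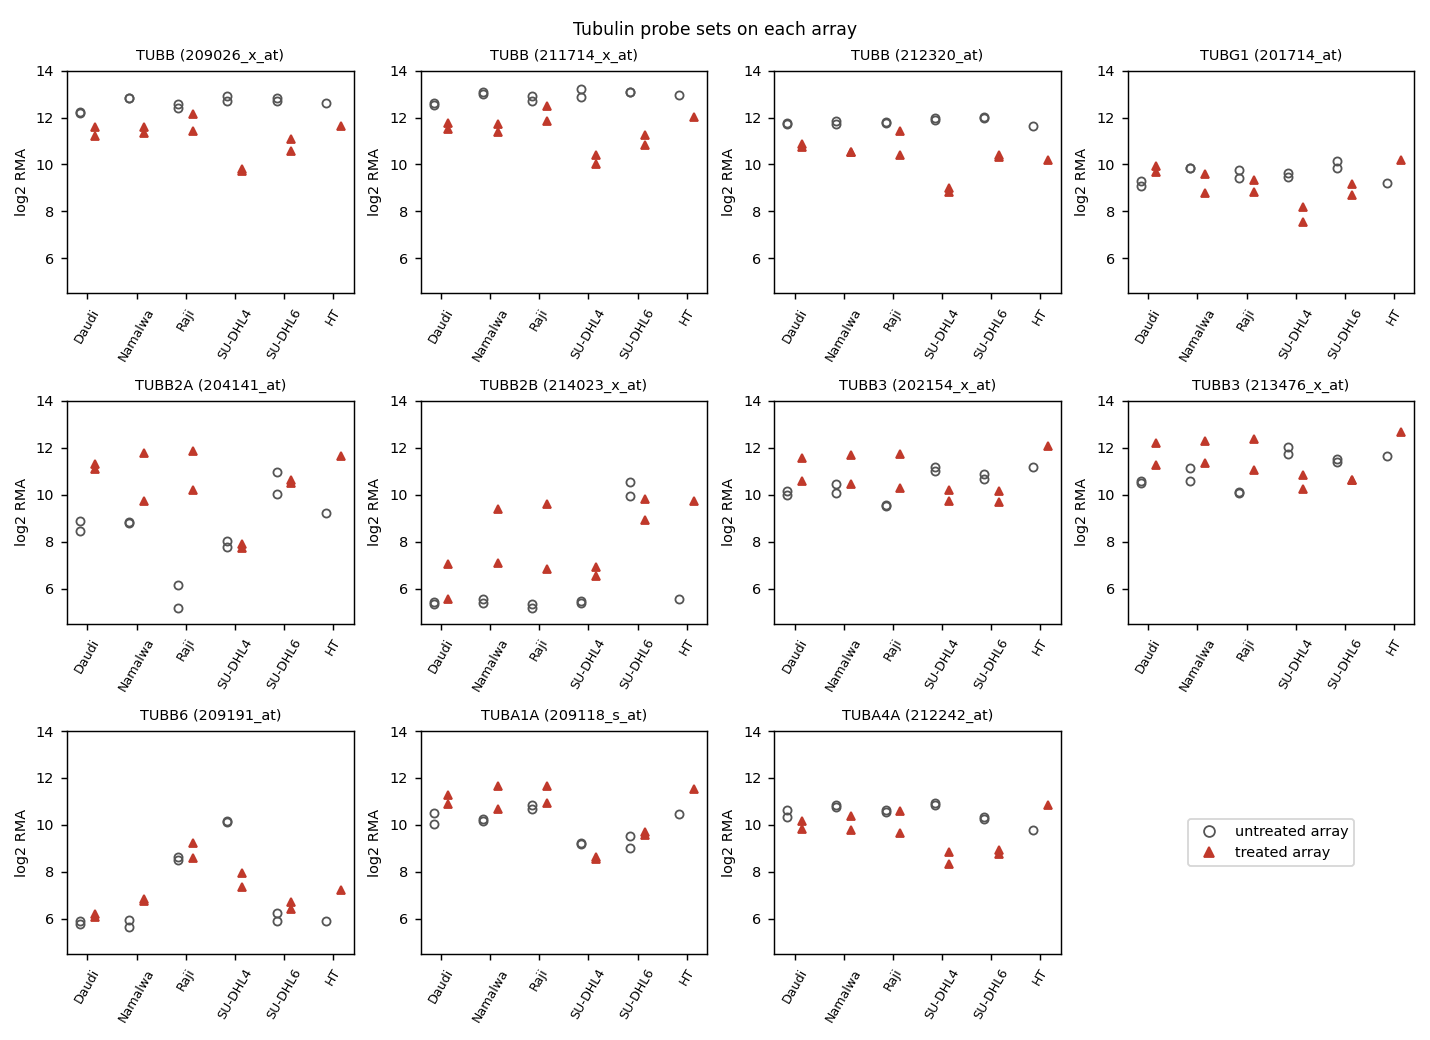
Log2 RMA level of the member probe sets on each of the 22 arrays, by cell line, with untreated and treated arrays marked apart and 1 point per array. TUBB sits lower on treated arrays in every line, TUBB2A stands far higher on treated than untreated Raji arrays, and untreated TUBB2B is near 5.4 in every line but SU-DHL6.

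The ubiquitous beta chain is described first. On probe set 212320_at, which carries no mark for shared probes, untreated TUBB read 11.72 and 11.78 in Daudi, 11.73 and 11.84 in Namalwa, 11.83 and 11.75 in Raji, 11.90 and 11.96 in SU-DHL4, 12.03 and 11.99 in SU-DHL6, and 11.65 in HT. Treated TUBB read 10.73 and 10.89 in Daudi, 10.54 and 10.51 in Namalwa, 10.41 and 11.43 in Raji, 9.01 and 8.84 in SU-DHL4, 10.40 and 10.32 in SU-DHL6, and 10.20 in HT. Every treated array was below every untreated array, SU-DHL4 was the lowest of the treated lines, and the second treated Raji array lay closest to the untreated ones. The untreated line means, 11.65 to 12.01, were close together, while the treated ones spread more widely, with an SD of 0.72 against 0.13.

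The mean difference at 212320_at was -1.53 ± 0.78 (SD, n = 6 lines; adjusted p = 0.00538, limma), a level 2.88-fold lower. Probe sets 209026_x_at and 211714_x_at gave -1.46 ± 0.90 (adjusted p = 0.0103) and -1.48 ± 0.82 (adjusted p = 0.00694), with 6 of 6 lines lower on each. Taken line by line, 212320_at fell in all 6 lines, by 0.94 in Daudi, 1.25 in Namalwa, 0.86 in Raji, 3.01 in SU-DHL4, 1.65 in SU-DHL6 and 1.46 in HT. The calls in Namalwa, SU-DHL4 and SU-DHL6 held under all alternatives run. The Raji call was lost after quantile normalisation and cyclic loess (-0.68 and -0.52) and without any of 3 Raji arrays, and the difference was -0.36 without the first treated one (adjusted p = 0.196). The Daudi call was lost after quantile normalisation (-0.69, adjusted p = 0.0577) and without any of 3 Daudi arrays. The HT call was lost with SU-DHL4 and treated replicate 2 of SU-DHL6 left out. The other probe sets did not pass in Raji, with differences of -0.69 and -0.64, or in HT, with -0.95 and -0.96. At 212320_at the mean was -1.02 in the Burkitt lines alone (adjusted p = 0.0260) and -2.04 in the DLBCL lines alone (adjusted p = 0.0373). Probe set 211714_x_at missed the threshold in the Burkitt lines alone (-1.03, adjusted p = 0.0590) and 209026_x_at in the DLBCL lines alone (-1.98, adjusted p = 0.0503). The 3 probe sets moved together over the 22 arrays, with Pearson r of 0.954 to 0.988, given as a description because the arrays share lines and normalisation.

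RefSeq lists a pair of start sites for TUBB, and their promoter windows, 250 bases before to 50 after the start, are shown because 5-aza-dC blocks the methylation of CG dinucleotides. The windows lie on the plus strand of GRCh38.p14, the first at chr6:30720102-30720401 and the second at chr6:30721388-30721687, and hold 25 and 43 CG dinucleotides, printed in capitals. The median of 35116 RefSeq promoter windows is 14 and the upper quartile 28. No methylation was measured here.
TUBB first start: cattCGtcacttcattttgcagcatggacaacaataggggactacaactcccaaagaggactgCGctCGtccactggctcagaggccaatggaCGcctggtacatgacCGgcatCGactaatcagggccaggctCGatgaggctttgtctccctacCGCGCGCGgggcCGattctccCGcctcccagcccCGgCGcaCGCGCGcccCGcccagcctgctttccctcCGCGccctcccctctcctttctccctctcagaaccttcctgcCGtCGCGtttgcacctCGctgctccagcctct
TUBB second start: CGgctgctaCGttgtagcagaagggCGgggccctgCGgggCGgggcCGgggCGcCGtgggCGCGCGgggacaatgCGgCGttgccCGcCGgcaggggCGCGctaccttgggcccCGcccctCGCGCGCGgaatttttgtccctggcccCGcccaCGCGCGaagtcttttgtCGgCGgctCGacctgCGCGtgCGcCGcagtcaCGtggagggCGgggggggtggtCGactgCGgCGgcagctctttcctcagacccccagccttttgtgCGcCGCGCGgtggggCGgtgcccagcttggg

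TUBG1, gamma-tubulin, did not pass the test over the lines, with a mean difference of -0.38 ± 1.01 (adjusted p = 0.389). Untreated TUBG1 read 9.45 and 9.63 in SU-DHL4 and 10.15 and 9.87 in SU-DHL6, and treated TUBG1 read 8.21 and 7.53 and then 9.18 and 8.72 in the same lines. It fell in both lines, by 1.68 in SU-DHL4 and 1.06 in SU-DHL6. The SU-DHL4 call held under all alternatives run, with a difference of -0.84 after cyclic loess. The SU-DHL6 call was lost after quantile normalisation (-0.54, adjusted p = 0.182) and cyclic loess (-0.54, adjusted p = 0.117), without the first untreated or the second treated SU-DHL6 array, and with that treated array and SU-DHL4 left out. The treated arrays lay above the untreated ones in Daudi and HT, by 0.62 and 0.98, and below them in Namalwa and Raji, by -0.65 and -0.50, and none of those 4 differences passed. The untreated line means spanned 9.18 in Daudi to 10.01 in SU-DHL6.

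TUBB2A, a neuron-enriched beta chain, differed widely between untreated lines. Untreated TUBB2A read 8.89 and 8.46 in Daudi, 8.83 and 8.79 in Namalwa, 6.16 and 5.18 in Raji, 8.05 and 7.79 in SU-DHL4, 10.96 and 10.04 in SU-DHL6, and 9.20 in HT. The line means ran from 10.50 in SU-DHL6 through HT, Namalwa, Daudi and SU-DHL4 to 5.67 in Raji, and of these neighbours the arrays of Namalwa and Daudi overlapped. Treated TUBB2A read 11.29 and 11.10 in Daudi, 9.75 and 11.79 in Namalwa, 11.88 and 10.19 in Raji, 7.71 and 7.92 in SU-DHL4, 10.51 and 10.61 in SU-DHL6, and 11.64 in HT. Treated and untreated arrays overlapped in SU-DHL4 and SU-DHL6 and were apart in the other 4 lines.

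In Raji TUBB2A rose by 5.36 ± 0.59 (SE; adjusted p = 0.000102, limma on all 22 arrays), which is 41.1-fold, and no member differed more in any line. The untreated Raji mean, 5.67, lay just under the dim limit of 5.68, so the size of that rise is uncertain. Raji duplicates also lay 1.69 apart treated and 0.98 apart untreated. TUBB2A rose by 2.52 in Daudi (adjusted p = 0.00973) and by 1.96 in Namalwa (adjusted p = 0.0313). The Namalwa call rested on the second treated array, without which the difference was 0.94 (adjusted p = 0.322). That call was also lost without either untreated array, and with SU-DHL4 and treated replicate 2 of SU-DHL6 left out. The Daudi call was lost without the first treated or the second untreated array, with an adjusted p of up to 0.0711, and the Raji call held under all alternatives run. HT differed by 2.44 from single arrays and did not pass (adjusted p = 0.135), and SU-DHL4 and SU-DHL6 differed by -0.10 and 0.06. Over the 6 lines the mean was 2.04 ± 2.00, with 5 of 6 lines higher and an adjusted p of 0.049955, just inside the threshold. The adjusted p lay between 0.0396 and 0.106 when single arrays were left out, and the call was lost for 11 of the 22 arrays. Those were both HT arrays, the first Daudi array of either treatment, the second SU-DHL4 and SU-DHL6 arrays of either treatment, the second treated Namalwa and Raji arrays and the first untreated Raji array. The mean was 3.28 in the Burkitt lines alone (adjusted p = 0.0848) and 0.80 in the DLBCL lines alone (adjusted p = 0.314).

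TUBB2B, the close relative of TUBB2A, was read by 214023_x_at, a probe set marked as possibly binding other transcripts. Probe sequences were not used here, so signal from TUBB2A or other isotypes cannot be told apart from TUBB2B. The TUBB2B signal was at or below the dim limit on 9 of the 11 untreated arrays. Untreated TUBB2B read 5.36 and 5.41 in Daudi, 5.53 and 5.39 in Namalwa, 5.34 and 5.18 in Raji, 5.45 and 5.39 in SU-DHL4, 10.52 and 9.94 in SU-DHL6, and 5.55 in HT. SU-DHL6, which was also the line with the highest untreated TUBB2A, stood apart from the other 5 lines. Treated TUBB2B read 7.03 and 5.57 in Daudi, 7.11 and 9.39 in Namalwa, 9.61 and 6.83 in Raji, 6.92 and 6.55 in SU-DHL4, 9.81 and 8.93 in SU-DHL6, and 9.74 in HT. Treated arrays were above untreated ones without overlap in 5 lines and below them in SU-DHL6.

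TUBB2B rose by 2.79 in Namalwa (adjusted p = 0.0220) and by 2.96 in Raji (adjusted p = 0.0244). In HT the difference was 4.19 from single arrays (adjusted p = 0.0546), and in Daudi, SU-DHL4 and SU-DHL6 it was 0.91, 1.32 and -0.86, none of which passed. Where the untreated level was at or below the dim limit, the size of a log2 difference is uncertain. The treated duplicates also lay 2.28 apart in Namalwa and 2.77 in Raji. The Raji call was lost without the first treated array, at 1.58 (adjusted p = 0.318), and the Namalwa call without the second, at 1.65 (adjusted p = 0.229). Each was also lost without either untreated array of its line, and with SU-DHL4 and treated replicate 2 of SU-DHL6 left out. Over the 6 lines the mean was 1.88 ± 1.79 (adjusted p = 0.0460), with 5 of 6 lines higher. Leaving out single arrays gave adjusted p from 0.0338 to 0.0989, with the call lost for 8 of 22. Those were both HT arrays, the first treated arrays of Daudi, Raji, SU-DHL4 and SU-DHL6, the second treated Namalwa array and the second untreated SU-DHL6 array. The Burkitt lines alone gave 2.22 (adjusted p = 0.0744) and the DLBCL lines alone 1.55 (adjusted p = 0.275).

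The probe set shared by TUBB2A and TUBB2B, 209372_x_at, did not pass over the lines, with 0.51 ± 1.38 (adjusted p = 0.401). It differed by 1.03, 1.15, 1.75 and 1.59 in Daudi, Namalwa, Raji and HT and by -1.28 and -1.21 in SU-DHL4 and SU-DHL6, none passing. In SU-DHL4 and SU-DHL6 its sign was thus negative where 204141_at of TUBB2A differed by -0.10 and 0.06. Across the 22 arrays TUBB2A and TUBB2B had a Pearson r of 0.704, and TUBB2A with the TUBB probe sets -0.196 to -0.231, as descriptions over arrays that share lines.

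The promoter windows of the pair are shown because they were the members with higher levels after treatment and both are rich in CG. Both lie on the minus strand of GRCh38.p14, at chr6:3157495-3157794 for TUBB2A and chr6:3227604-3227903 for TUBB2B, and hold 41 and 34 CG dinucleotides, in capitals, more than 93.3% and 84.4% of RefSeq windows.
TUBB2A: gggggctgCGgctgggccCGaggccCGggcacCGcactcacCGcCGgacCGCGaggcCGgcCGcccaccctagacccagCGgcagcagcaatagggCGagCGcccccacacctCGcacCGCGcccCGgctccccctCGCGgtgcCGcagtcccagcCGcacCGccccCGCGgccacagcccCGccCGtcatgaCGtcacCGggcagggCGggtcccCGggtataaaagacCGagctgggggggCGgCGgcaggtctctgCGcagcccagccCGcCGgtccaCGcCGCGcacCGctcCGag
TUBB2B: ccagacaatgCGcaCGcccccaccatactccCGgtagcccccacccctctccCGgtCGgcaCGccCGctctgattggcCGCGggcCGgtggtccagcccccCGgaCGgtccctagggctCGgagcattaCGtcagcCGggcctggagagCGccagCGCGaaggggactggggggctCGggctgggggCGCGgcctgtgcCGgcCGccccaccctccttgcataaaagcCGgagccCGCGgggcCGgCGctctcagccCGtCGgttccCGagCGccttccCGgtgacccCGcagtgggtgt

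The TUBB2A window held the letters GGGCGG, a GC box, 5 times and TATAAA once, and the TUBB2B window held GGGCGG once and CCAAT once, on either strand. Of all windows 45% held GGGCGG, 34.6% CCAAT and 11.5% TATAAA. The aligned windows of TUBB2A and TUBB2B were identical at 181 of 347 positions, 52.2%, while alignments with the TUBB windows gave 50.3% to 55.0%. The CG counts of the other members are given as a description, and their part in the treatment differences was not tested. TUBB, which was lower, had 25 and 43, TUBG1 had 37, TUBB3 9 and 47, TUBB6 20 and 50, TUBA1A 16 and TUBA4A 28.

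TUBB3, a beta chain used in the laboratory as a neuronal marker, read well above the dim limit in all 6 lines on a pair of probe sets that both end in _x_at. Probe sequences were not used here, so signal from other isotypes cannot be told apart from TUBB3. On 213476_x_at untreated TUBB3 read 10.59 and 10.51 in Daudi, 11.12 and 10.57 in Namalwa, 10.09 and 10.12 in Raji, 11.72 and 12.05 in SU-DHL4, 11.50 and 11.41 in SU-DHL6, and 11.66 in HT. Treated TUBB3 read 12.21 and 11.26 in Daudi, 11.37 and 12.27 in Namalwa, 12.36 and 11.05 in Raji, 10.83 and 10.23 in SU-DHL4, 10.61 and 10.64 in SU-DHL6, and 12.66 in HT. Treated arrays were above untreated ones in the 3 Burkitt lines and HT and below them in SU-DHL4 and SU-DHL6, with no overlap in any line.

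TUBB3 rose by 1.60 in Raji (adjusted p = 0.0202) and fell by 1.36 in SU-DHL4 (adjusted p = 0.0126). The differences of 1.19 in Daudi, 0.97 in Namalwa, -0.83 in SU-DHL6 and 1.0 in HT did not pass. The Raji difference was 0.94 without the first treated array (adjusted p = 0.269) and that call was also lost without either untreated Raji array. The SU-DHL4 call was lost after quantile normalisation (-0.57, adjusted p = 0.256) and cyclic loess (-0.63, adjusted p = 0.252), and without the second SU-DHL4 array of either treatment. On 202154_x_at the Raji call was lost in 16 of 28 alternatives and the SU-DHL4 call in 15 of 27. The second probe set, 202154_x_at, gave the same signs in every line and a correlation of 0.982 over the arrays. Over the 6 lines the mean was 0.43 ± 1.21 on 213476_x_at (adjusted p = 0.417) and 0.37 ± 1.09 on 202154_x_at (adjusted p = 0.441). The means were 1.25 and 1.11 in the Burkitt lines alone (adjusted p = 0.0303 and 0.0389) and -0.40 and -0.38 in the DLBCL lines alone. The TUBB4B probe set, also _x_at, had the same sign as TUBB3 in every line, with 0.77, 0.50, 1.23, -1.42, -0.51 and 1.14 in Daudi, Namalwa, Raji, SU-DHL4, SU-DHL6 and HT. The neuronal markers SYP, SNAP25, NEFL and GAP43 differed by 0.30, 0.29, 0.19 and 0.17, and only SYP passed. Their part in the TUBB3 values was not tested.

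TUBB6 was high in a pair of untreated lines and differed in direction between lines after treatment. Untreated TUBB6 read 5.88 and 5.78 in Daudi, 5.63 and 5.94 in Namalwa, 8.52 and 8.64 in Raji, 10.13 and 10.17 in SU-DHL4, 5.92 and 6.23 in SU-DHL6, and 5.89 in HT. SU-DHL4 was the highest and Raji next, while the other 4 lines lay between 5.78 and 6.07, close to the dim limit. Treated TUBB6 read 6.22 and 6.09 in Daudi, 6.74 and 6.83 in Namalwa, 9.21 and 8.59 in Raji, 7.94 and 7.36 in SU-DHL4, 6.41 and 6.72 in SU-DHL6, and 7.23 in HT. Only the Raji arrays overlapped.

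TUBB6 fell in SU-DHL4, by 2.5 (adjusted p = 3.39e-06), a 5.65-fold lower level. It rose by 1.0 in Namalwa (adjusted p = 0.00487) and by 1.34 in HT from single arrays (adjusted p = 0.0290). The SU-DHL4 call held under all alternatives run. The Namalwa call was lost without the first untreated array (adjusted p = 0.0615), and the HT call after quantile normalisation. In Daudi, Raji and SU-DHL6 the differences of 0.32, 0.32 and 0.50 did not pass. The mean over the lines, 0.16 ± 1.37 (adjusted p = 0.788), became 0.70 without SU-DHL4 (adjusted p = 0.0300), -0.07 without HT and -0.01 without Namalwa.

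Of the alpha chains, TUBA1A did not pass over the lines, with 0.51 ± 0.62 (adjusted p = 0.103) and 5 of 6 lines higher. TUBA1A was read by 209118_s_at, a probe set marked for probes shared within a gene family. Probe sequences were not used here, so signal from other alpha chains cannot be told apart from TUBA1A. In Namalwa untreated TUBA1A read 10.16 and 10.23 and treated TUBA1A 10.67 and 11.64, a rise of 0.96 (adjusted p = 0.0363). Without the second treated Namalwa array that difference was 0.47 (adjusted p = 0.348). The call was also lost with each array centred on its median and without either untreated Namalwa array. It was lost too with SU-DHL4 and treated replicate 2 of SU-DHL6 left out. The other lines differed by 0.80 in Daudi, 0.52 in Raji, -0.63 in SU-DHL4, 0.35 in SU-DHL6 and 1.05 in HT, with none passing. The mean was 0.74 without SU-DHL4 (adjusted p = 0.00817), 0.76 in the Burkitt lines alone (adjusted p = 0.0416) and 0.26 in the DLBCL lines alone. Untreated line means fell into a higher group of Raji, HT, Daudi and Namalwa, 10.19 to 10.76, and a lower pair, SU-DHL6 at 9.27 and SU-DHL4 at 9.21, whose arrays overlapped.

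TUBA4A did not pass over the lines either, with -0.72 ± 1.13 (adjusted p = 0.169) and 5 of 6 lines lower. In SU-DHL4 untreated TUBA4A read 10.83 and 10.92 and treated TUBA4A 8.83 and 8.35, and TUBA4A fell by 2.29 (adjusted p = 2.63e-05). In SU-DHL6 untreated arrays read 10.33 and 10.24 and treated arrays 8.76 and 8.92, and TUBA4A fell by 1.44 (adjusted p = 0.00171). After cyclic loess the differences were -1.37 (adjusted p = 0.00230) and -0.83 (adjusted p = 0.0574), so that the SU-DHL6 call was lost. HT had the other sign, from 9.77 to 10.86 on single arrays, and did not pass. Daudi, Namalwa and Raji differed by -0.50, -0.73 and -0.45, none passing, and the Raji arrays overlapped. Without HT the mean was -1.08 (adjusted p = 0.0345).

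**Figure D2:**
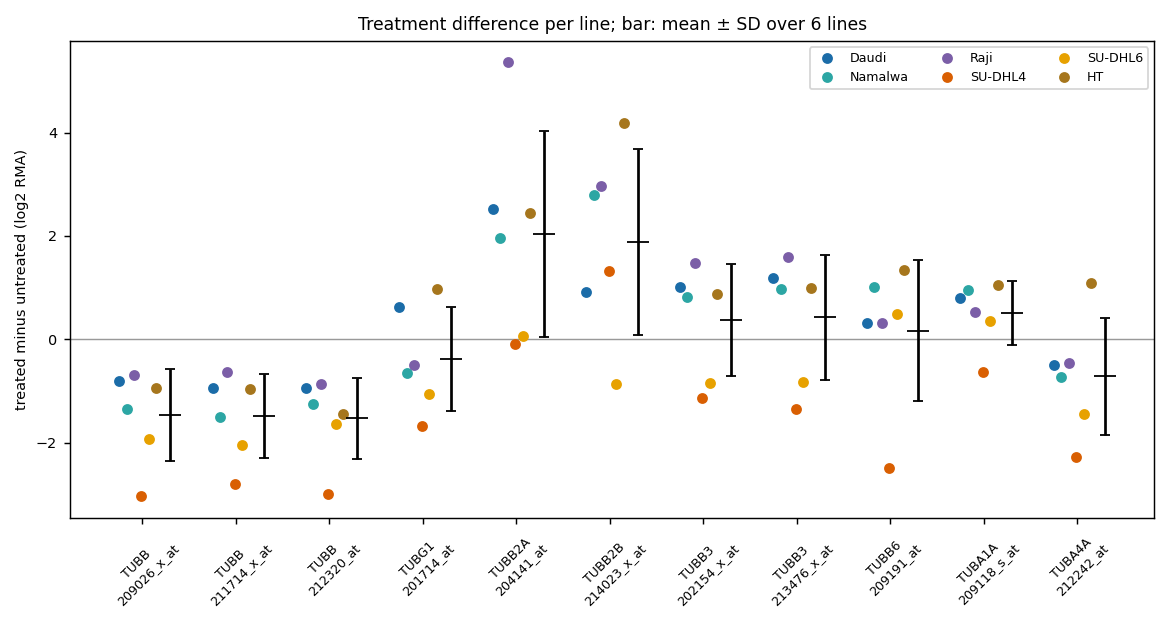
Treated minus untreated log2 difference of each member probe set in each of the 6 cell lines, 1 point per line, with bars for the mean ± SD over lines. All 3 TUBB probe sets lie below 0 in every line, TUBB2A reaches 5.36 in Raji, and TUBB6 spans -2.5 in SU-DHL4 to 1.34 in HT.

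Counted within lines, the 11 member probe sets gave 10 calls higher and 21 lower. TUBB, read by 3 of the 11, gave every lower call in Daudi, Namalwa, Raji and HT. In SU-DHL4 and SU-DHL6 all 3 TUBB probe sets were among those lower. Probe sets of 1 gene moved together over the arrays, so the calls are not separate genes. Daudi had 1 higher and 3 lower, where 9.33% and 8.79% of all probe sets were called. Namalwa had 4 and 3, against 9.04% and 11.7%, and Raji 4 and 1, against 4.75% and 8.17%. SU-DHL4 had 0 higher and 8 lower, against 34.3% and 22.3%, and SU-DHL6 had 0 and 5, against 14.1% and 14.2%. HT, with single arrays assumed to vary like the rest, had 1 and 1, against 1.73% and 2.17%. With the arrays of narrow spread left out (SU-DHL4, and SU-DHL6 treated replicate 2), the calls numbered 5 higher and 11 lower.

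A moderated F test, chosen after the data had been seen, asked whether the difference varied among the 6 lines. It called 9 of 11 member probe sets, where 17.9% of all were called. Its error is the spread between duplicate arrays, which may be technical, so it compares these cultures. TUBB6 had the smallest adjusted p, 0.000118, and TUBB2B and TUBA1A did not pass, at 0.0696 and 0.0848. Between kinds of lymphoma, 0 of 11 passed for the difference in treatment effect, where 0.0045% of all probe sets did, and 3 had an unadjusted p under 0.05, where 11.9% of all did. Those 3 were the TUBB3 probe sets, whose difference was higher in Burkitt than DLBCL lines by 1.48 and 1.65, and 212320_at of TUBB, higher by 1.02. In untreated cells 0 of 11 passed, where 0.009% of all did, and 2 had an unadjusted p under 0.05, where 5.15% of all did. Both were TUBB3 probe sets, at -1.07 and -1.17 in Burkitt minus DLBCL lines (adjusted p = 0.730 and 0.649, limma).

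The tissue-restricted members were set against the ubiquitous ones by averaging the differences of 6 and of 2 genes in each line. TUBB6, found in many tissues, was counted among the 6. The tissue-restricted mean was 0.86 in Daudi, 1.15 in Namalwa, 1.71 in Raji, -0.91 in SU-DHL4, -0.37 in SU-DHL6 and 1.84 in HT. The ubiquitous mean was -0.14 in Daudi, -1.01 in Namalwa, -0.62 in Raji, -2.31 in SU-DHL4, -1.47 in SU-DHL6 and -0.07 in HT. The tissue-restricted mean exceeded the ubiquitous one in every line, by 1.0, 2.16, 2.33, 1.41, 1.10 and 1.91 in the same order, with a mean of 1.65 ± 0.56. No test is given, since the members were chosen with results known, and the members of a class differed among themselves. The ubiquitous means in Daudi and HT came from opposite signs, with TUBB at -0.90 and -1.12 and TUBG1 at 0.62 and 0.98. TUBG1 was above TUBB6 and TUBA4A in Daudi and SU-DHL4. It was above TUBA4A in Namalwa and SU-DHL6 and above TUBB3 in HT, and in Raji it was below all tissue-restricted genes. In the mean over lines TUBB2A and TUBB2B were above and TUBA4A below the other tissue-restricted genes, but in SU-DHL6 TUBB2B was at -0.86, below TUBB6 and TUBA1A, in SU-DHL4 TUBB6 was the lowest, and in HT TUBA4A was at 1.09, above TUBA1A.

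**Figure D3:**
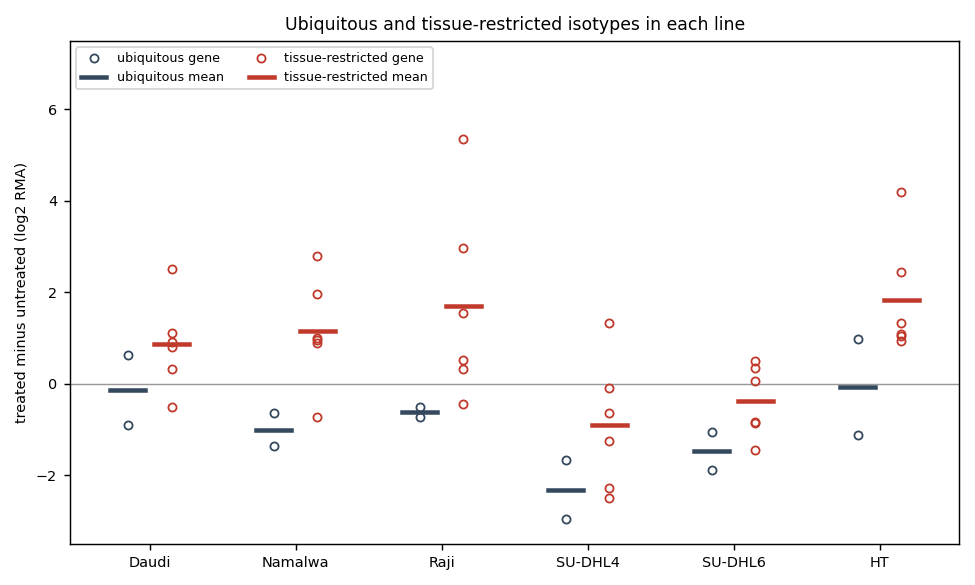
Treated minus untreated log2 difference in each line for each member gene, with the means of the 6 tissue-restricted and the 2 ubiquitous genes. The tissue-restricted mean lies above the ubiquitous mean in all 6 lines, although both are below 0 in SU-DHL4 and SU-DHL6. In Daudi and HT the ubiquitous genes TUBB and TUBG1 have opposite signs.

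In the median over the member probe sets, duplicate treated arrays lay further apart than untreated ones in all 5 lines that had them. Over all probe sets the median gap was 0.14 treated and 0.15 untreated in Daudi, and 0.18 and 0.17 in Raji. It was 0.21 and 0.12 in Namalwa, 0.19 and 0.14 in SU-DHL4, and 0.30 and 0.17 in SU-DHL6. The median gap between duplicates over the 11 member probe sets was 0.93 in treated Raji, 0.79 in Namalwa, 0.39 in SU-DHL4, 0.34 in Daudi and 0.31 in SU-DHL6, against 0.10 to 0.20 untreated. The gap was widest for TUBB2B, at 2.77 in Raji, 2.28 in Namalwa and 1.46 in Daudi. The first treated array was the higher one for 10 of 11 member probe sets in Daudi, 10 in SU-DHL4, 7 in Raji and 6 in SU-DHL6. In Namalwa the second treated array was the higher one for 9 of 11. Of the untreated arrays, the first was higher for 9 in Daudi, 8 in SU-DHL6, 7 in Raji and 6 in Namalwa. In SU-DHL4 the second untreated array was higher for 8.

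Among the other tubulin genes, 9 of 14 listed were measured, and 1 was higher, 1 lower and 7 did not pass. Each call is 11.1% of the 9 genes, below the 18.4% higher and 17.9% lower over all genes. They had a median of 0.11 where the median of the brightest probe set of each gene was 0.12. TUBB4A, a beta chain of brain and oligodendrocytes, rose in 6 of 6 lines by 1.56 ± 0.81 (adjusted p = 0.00548), from 6.25 to 7.82. TUBA1B, the alpha chain of most dividing cells, fell by 0.88 ± 0.70 (adjusted p = 0.0286), a call that was lost after cyclic loess, without the line SU-DHL6, with SU-DHL4 and treated replicate 2 of SU-DHL6 left out, and in the DLBCL lines alone. In the Burkitt lines alone the TUBB4A call was lost. TUBB4B, another widely used beta chain, differed by 0.29 ± 1.04 (adjusted p = 0.527).

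Genes that fold tubulin were next. Of 12 measured subunits of the CCT chaperonin and prefoldin, which fold actin and tubulin chains, 11 were lower and 0 higher, with a median of -1.02, while over all 11963 genes 17.9% were lower and 18.4% higher. VBP1, CCT6A and CCT5 fell by 1.59, 1.48 and 1.41, and PFDN4 fell by 1.89, although its other probe sets gave 0.04 and -0.03. CCT8, counted as lower at -0.82, had 0.25 on its other probe set. The count lower was 7 after quantile normalisation or cyclic loess, 7 in the Burkitt lines alone and 5 in the DLBCL lines alone, with medians below 0 in each. Of the 6 folding cofactors, which assemble the alpha and beta chains, 1 was lower, 16.7% against 17.9% of all genes. It was TBCA, which fell by 0.80 (adjusted p = 0.00184, limma), and the list median was -0.15. That median was 0.15 after quantile normalisation and 0.18 after cyclic loess, and in the Burkitt lines alone 0 were lower. Of 6 measured partners of TUBG1 in the gamma-tubulin ring complex, 4 were lower and 1 higher, with a median of -0.49. Those are 66.7% and 16.7%, against 17.9% and 18.4% of all genes. TUBGCP3 fell by 2.04, with -0.87 on its other probe set, and MZT2B rose by 0.73. In the Burkitt lines alone 0 were lower and 0 higher, and in the DLBCL lines alone 2 were lower and 0 higher.

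Of 13 measured tubulin-modifying enzymes, which add or remove acetyl, tyrosine or glutamate groups, 7 were higher and 2 lower. Those are 53.8% and 15.4%, against 18.4% and 17.9% of all genes, and the median was 0.42. SIRT2, a tubulin deacetylase, rose by 0.93, the glutamylase subunit TTLL1 rose by 0.82 and TTLL12 fell by 0.81. With each array centred on its median, 4 were higher and 2 lower. The count higher was also 4 without HT, 3 without SU-DHL6, 1 in the Burkitt lines alone and 2 in the DLBCL lines alone. Of 21 microtubule-binding proteins 4 were higher, 19.0% against 18.4% of all genes, and 2 lower, 9.52% against 17.9%, with a median of 0.10. MAP1A, a neuronal microtubule-associated protein, rose by 0.90, with 0.22 and 0.34 on its other probe sets. STMN1, which sequesters tubulin dimers, fell by 1.11. With centred arrays 2 were higher and 2 lower, in the Burkitt lines alone 3 and 0, and in the DLBCL lines alone 1 and 0. Higher counts were also 2 without Daudi, Namalwa or SU-DHL6, and 1 was lower without Raji or HT.

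Genes of cell division were examined because TUBB serves the mitotic spindle. Of 10 such genes 8 were lower and 0 higher, 80% and 0%, against 17.9% and 18.4% of all genes. Their median was -1.32, and CCNA2, CDK1, CCNB1 and PLK1 fell by 2.30, 1.89, 1.67 and 1.5. By line, the median was -2.91 in SU-DHL4, -2.08 in SU-DHL6 and -1.91 in Namalwa, against -0.79 in Daudi, -0.61 in HT and -0.21 in Raji. With SU-DHL4 and treated replicate 2 of SU-DHL6 left out, 5 of 10 were lower. The count was 4 without the line Namalwa, 4 without the line SU-DHL6, 1 in the Burkitt lines alone and 3 in the DLBCL lines alone. TUBB was also lowest in SU-DHL4, and the part of cell division in its values was not tested.

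**Figure D4:**
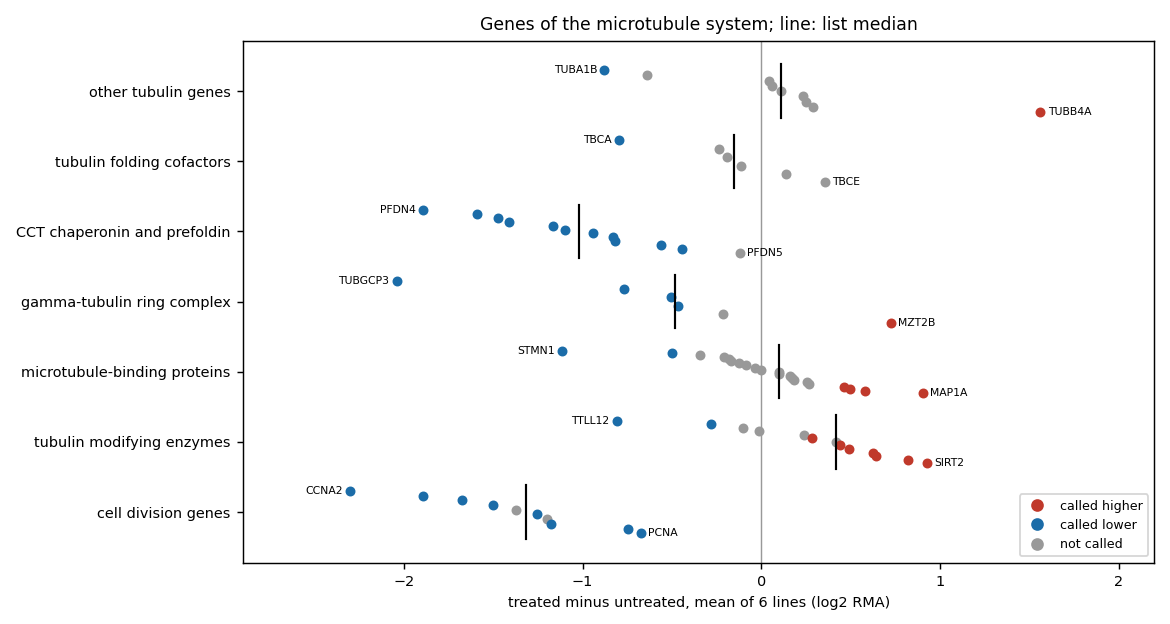
Treated minus untreated log2 difference over the 6 lines for the genes of each tubulin-related list, 1 point per gene, marked by whether it passed the test as higher, lower or neither. The CCT and prefoldin subunits and the cell division genes lie mostly below 0, with medians of -1.02 and -1.32, and the modifying enzymes mostly above it, with a median of 0.42.

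For each member the genes with the most similar profile over the 12 line and treatment means were listed by Pearson r, as a description of means that share lines. For TUBB they were the probe set annotated to MIR1244-3 (r = 0.99) and PTMA (r = 0.98). For TUBG1 they were LRRC14 and DTL (0.92 and 0.90), for TUBB2A FABP6 and CREB3 (both 0.88) and for TUBB2B LGALS3 and RGS2 (0.91 and 0.90). TUBB3 was followed by STIMATE and RAB8B (0.88 and 0.85), TUBB6 by PODXL and PCNX1 (0.92 and 0.89), TUBA1A by UBE2B and NAA35 (0.94 and 0.92) and TUBA4A by DNTTIP2 and DCPH1 (0.94 and 0.93).

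The authors' deposited table, which treats the 22 arrays as units, calls 3 member probe sets higher and 4 lower, where it calls 34.6% and 22.3% of the 22215 probe sets. The authors' deposited table gives TUBB2A 2.00, TUBB2B 1.68 and TUBA1A 0.46 as higher, and the 3 TUBB probe sets at -1.51 to -1.53 and TUBA4A at -0.88 as lower. TUBA1A and TUBA4A were not called with lines as units.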

How the data were processed

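RNA of 6 lymphoma lines was measured on 22 Affymetrix arrays. The deposited values are log2 expression that the authors made by RMA, per the labels. RMA applies quantile normalisation over all arrays and so sets levels relative to the rest. R 2.10.1 is named in the submitters' processing notes. A second deposited table gives the authors' p-values, adjusted p-values and log2 differences. Its differences equal treated minus untreated array means within 3.5e-14. Its p-values equal those of limma with line as an additive term within 5.1e-13. The array number limits the precision.

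Of 22283 probe sets, 68 controls were left out. Of the other 22215, 19065 had 1 gene symbol, 1043 several and 2107 none, and 19053 matched the RefSeq table. Groups came from the labels. Tests used limma 3.58.1 in R 4.3.3 (lmFit, eBayes, two-sided, Benjamini-Hochberg over all 22215 probe sets, threshold 0.05), with no filter on dim probe sets. The effect over lines used 12 line means with line as a block. Single lines used all 22 arrays with 12 group means. The comparison of kinds used 6 line differences, or 6 untreated means. Genes in lists were read by their brightest probe set, and up to 4 per list, those with the largest differences, and the 2 most similar genes per member were named. Members, lists and tests were chosen with earlier results of these data known. The steps were tested on simulated data. Alternatives were centring, quantile normalisation, cyclic loess, a dim filter at the 25th percentile, the brightest probe set per gene, arrays or lines left out, single kinds, arrays as units and a replicate block. Same-numbered arrays did not deviate together, so the numbers were not taken as pairs. No genome build is named by the files, so coordinates are given only for RefSeq promoters.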

Additional observations from a re-analysis of the deposited data

Results flagged for a closer look

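The treatment difference varied among the 6 lines, by a moderated F test with Benjamini-Hochberg adjustment chosen after the data had been seen, for 9 of the 11 member probe sets, where 17.9% of all probe sets passed. The error in that test is the spread between duplicates, which may be technical, so its p-values do not carry the spread between separate cultures of a line. The adjusted p was 0.00196, 0.00373 and 0.00441 for TUBB probe sets 209026_x_at, 211714_x_at and 212320_at, 0.00833 for TUBG1, 0.00582 for TUBB2A and 0.000118 for TUBB6. It was 0.0370 and 0.0127 for TUBB3 probe sets 202154_x_at and 213476_x_at and 0.00384 for TUBA4A.

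A single line stood far from the other 5 in 3 of 22 sets of 6 line values examined, by Dixon's criterion, which chance meets in about 1 in 20. SU-DHL4 stood apart in the difference of TUBB at 212320_at, -3.01, and in that of TUBB6, -2.50. On the other TUBB probe sets, 209026_x_at and 211714_x_at, SU-DHL4 was also lowest, at -3.04 and -2.81, but did not meet the criterion. SU-DHL6 stood apart in the untreated level of TUBB2B, 10.2, on both of its arrays. The treated SU-DHL4 arrays were also among those with the narrowest spread of values, with interquartile ranges of 2.03 and 1.96. The part of that spread in the SU-DHL4 differences was not tested.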

How the results depend on the processing

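Over the 6 lines, all 3 TUBB probe sets stayed lower and past the threshold under all but the single-kind alternatives, where 209026_x_at missed it in the DLBCL lines alone (adjusted p = 0.0503) and 211714_x_at in the Burkitt lines alone (adjusted p = 0.0590). The count of 2 members higher was less firm. It was 0 with each array centred on its median, 0 without Daudi, Namalwa, Raji or HT, 0 in the DLBCL lines alone, and 0 to 2 when single arrays were left out. TUBB2A and TUBB2B each missed the threshold in 18 of 38 alternatives, with adjusted p over all 38 of 0.00272 to 0.314 and 0.00590 to 0.275. The count of 3 members lower became 1 with the brightest probe set per gene, since only 1 TUBB probe set was then tested. Within lines, 10 calls higher became 5 and 21 lower became 11 with SU-DHL4 and treated replicate 2 of SU-DHL6 left out, and 21 became 10 with the brightest probe sets. Leaving out single arrays gave as few as 5 calls higher. Of the 31 calls within lines, 13 held under every alternative run and 0 changed sign. Signs turned for uncalled means of TUBG1 with cyclic loess, 0.0162, of TUBB3 in the DLBCL lines alone, -0.38 and -0.40, and of TUBB6 in DLBCL alone, -0.22, without the line Namalwa, -0.00513, and without HT, -0.0715 (range with single arrays left out -0.0715 to 0.214). The cause was not tested. With replicate number as a replicate block on 22 arrays, 3 members were higher and 4 lower, adding TUBA1A at 0.46 (adjusted p = 0.0485) and TUBA4A at -0.88 (adjusted p = 0.0170), and within lines 8 calls were higher and 19 lower, with the TUBB (212320_at) and TUBB6 calls in HT among those lost. Deviations of same-numbered arrays correlated at -0.14 to 0.03. TUBB2B is limited by signal, with 9 untreated arrays at or below 5.68, and by a probe set that ends in _x_at.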
